A study of Nematostella vectensis with 9 samples.

Results

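The 78 gene models described here had higher read counts in both perturbed groups of Nematostella vectensis embryos than in control embryos, out of 21946 models with a count in any library. The DnTCF group received RNA coding for a dominant negative NvTCF, the BMP24 KD group a morpholino that knocks down NvBMP2/4, and the control group dextran, with 3 libraries each. The models were chosen by these levels themselves: a model was included when its lowest level over the 6 perturbed libraries exceeded its highest level over the 3 dextran libraries, when its mean in each perturbed group was at least 2 times the dextran mean, and when its mean over the 6 perturbed libraries was at least 5 CPM. CPM is the count of a model scaled to 1e6 counts on all gene models of that library. Of the 21946 models, 273 met the first condition, 126 also met the second and 78 met all 3. Among the 11237 models that reached 5 CPM over the perturbed libraries, all 3 DnTCF libraries lay above all 3 dextran libraries in 7.62% and all 3 BMP24 KD libraries did so in 5.45%. Of these models 220 (1.96%) had all 6 perturbed libraries above all 3 dextran libraries, and the 78 made up 0.694%. Since these levels chose the models, every value against dextran given below is a description, with no test.

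Nematostella vectensis, the starlet sea anemone, is a cnidarian, and all libraries came from poly-A enriched RNA of embryos raised at 17 °C and collected 24 h after fertilization. BMP2/4 belongs to the bone morphogenetic proteins, secreted signals that act through receptor kinases and Smad transcription factors, and in Nematostella BMP signalling patterns the directive axis, which lies across the oral-aboral axis. TCF is the DNA-binding partner of β-catenin in canonical Wnt signalling, which patterns the oral-aboral axis and takes part in specifying the endomesoderm. A dominant negative TCF occupies TCF target sites without passing on the β-catenin signal, and a morpholino is a synthetic oligonucleotide that binds a chosen RNA and prevents its translation or splicing. The labels list no nucleic acid for the dextran controls, so a response to injected nucleic acid and an effect of either perturbation cannot be told apart in models that were higher in both groups. How many embryos made up a sample is not given in the sources used here. In whole embryos, more cells of a type and more RNA per cell cannot be told apart.

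The files identify the models by JGI Nemve1 number only. None of the 21946 numbers or names matched any of 38762 rows in RefSeq's gene table for the jaNemVect1.1 assembly. The 78 models therefore have no gene name, no role and no sequence here, and the levels of NvBMP2/4 and NvTCF themselves were not analysed. Each library held between 1936858 and 5994290 counts on gene models. Reads with no assigned reference made up 39.6% to 41.1% of the counts in the DnTCF libraries, 42.0% to 58.9% in the BMP24 KD libraries and 49.2% to 87.8% in the dextran libraries.

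Together the 78 models took a larger share of the counts in the perturbed embryos than in the controls. Their summed level was 6318, 4729 and 4552 CPM in the DnTCF libraries, 5949, 4520 and 4549.6 CPM in the BMP24 KD libraries and 2136, 1131 and 796 CPM in the dextran libraries. Replicate 1 had the highest sum in each group, and the highest dextran library reached less than 0.5 times the lowest perturbed library. Group means were 5199 ± 973 CPM with DnTCF, 5006 ± 817 CPM with BMP24 KD and 1355 ± 697 CPM with dextran (SD, n = 3 each). The 10 models with the most counts carried 55.5% of the summed level in the perturbed libraries. The median model gave a similar picture, with 23.0 ± 5.35 CPM for DnTCF, 21.1 ± 2.16 CPM for BMP24 KD and 5.87 ± 3.09 CPM for dextran.

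The models spanned a wide range of counts. Means over the perturbed libraries ran from 5.04 to 675 CPM with a median of 22.5 CPM; 17 models stood at 100 CPM or more, 43 between 10 and 100 CPM, and 18 below 10 CPM. The fold over the dextran mean had a median of 3.49 with DnTCF (2.02 to 35.9) and 3.42 with BMP24 KD (2.03 to 63.2), where 2 was the lowest value the selection allowed. The smaller of the 2 folds was at least 3 for 40 models, at least 4 for 23, at least 5 for 15 and at least 8 for 6.

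**Figure D1:**
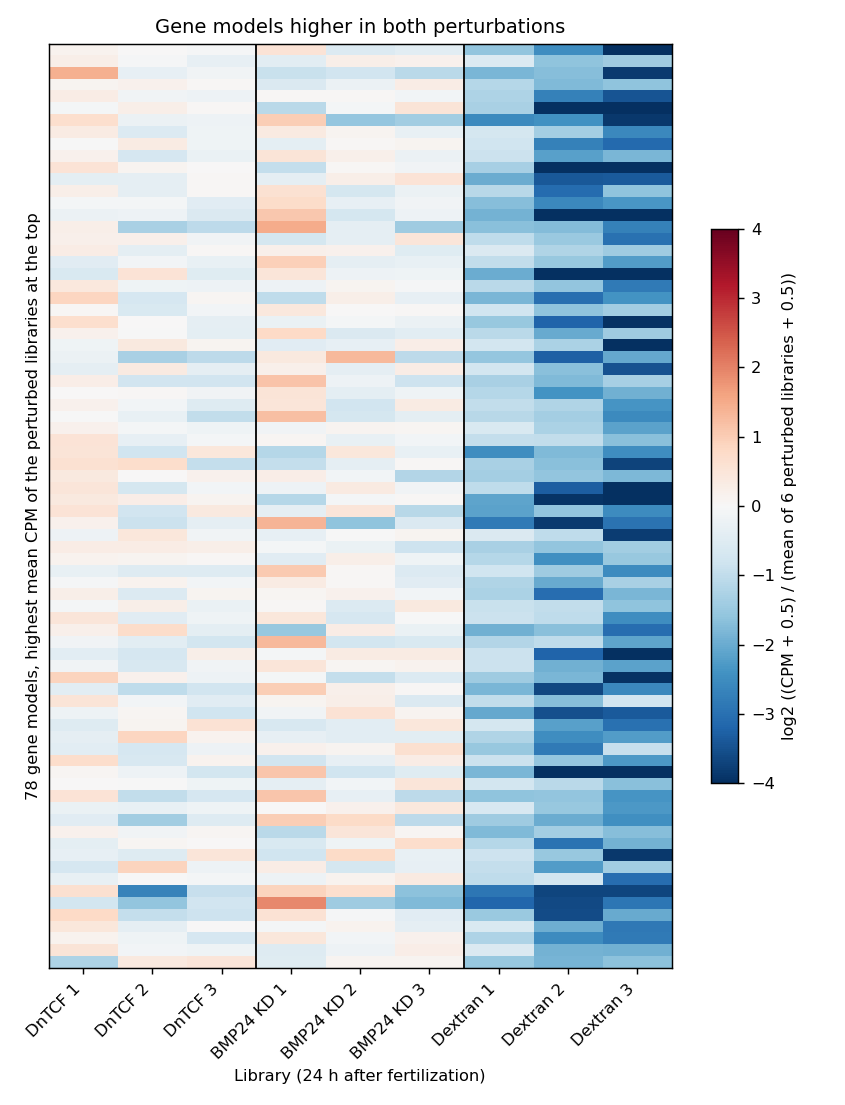
Level of each of the 78 models (rows, ordered by mean CPM over the perturbed libraries) in each of the 9 libraries (columns), as log2 of the level plus 0.5 CPM over the mean of the 6 perturbed libraries plus 0.5 CPM; red is above that mean, blue below, and the colour scale ends at a 16-fold difference. The dextran columns are blue throughout because the models were chosen that way, and dextran replicate 1 is the palest of them, as the counts of 66 of 78 models with their highest control value there describe.

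The model with the most counts was 239401, with 747, 680.0 and 654 CPM in the DnTCF libraries, 997, 466 and 509 CPM in the BMP24 KD libraries and 226, 121 and 35.5 CPM in the dextran libraries. Its dextran values differed among themselves by a wider ratio than its 6 perturbed values did. Model 247980 had 402, 331 and 273 CPM in the DnTCF libraries, 254, 398 and 384 CPM in the BMP24 KD libraries and 232, 112 and 128 CPM in the dextran libraries, so its control replicate 1 lay just under the lowest perturbed library. Model 243071 stood at 913, 267 and 308 CPM in the DnTCF libraries, 181, 196 and 159.7 CPM in the BMP24 KD libraries and 94.8, 103 and 23.5 CPM in the dextran libraries. Here DnTCF replicate 1 was far above every other library, and without it the 2 remaining DnTCF libraries were still above the 3 BMP24 KD libraries.

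Next in order of counts, model 238568 had 252, 263 and 238 CPM with DnTCF and 154, 198 and 282 CPM with BMP24 KD, against 105, 67.2 and 74.8 CPM with dextran, with both perturbed groups in one overlapping range. Model 770 had 276, 203 and 195 CPM with DnTCF and 236, 235 and 211 CPM with BMP24 KD, against 95.6, 34.4 and 20.0 CPM with dextran, which made it one of the 2 steadiest models over the perturbed libraries. Model 165261 had 206, 256 and 221 CPM with DnTCF and 103, 204 and 308 CPM with BMP24 KD, against 86.9, 10.3 and 11.0 CPM with dextran. In its case the dextran libraries divided, with replicate 1 near the lowest perturbed value and replicates 2 and 3 far below it.

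The largest folds that held in both perturbed groups, among models counted in every dextran library, belonged to 6 models. Model 242958 had 51.4, 117 and 56.4 CPM in the DnTCF libraries, 111, 68.1 and 70.8 CPM in the BMP24 KD libraries and 19.6, 2.57 and 0.322 CPM in the dextran libraries, 9.98-fold with DnTCF and 11.1-fold with BMP24 KD. Model 158342 had 23.9, 11.4 and 16.2 CPM in the DnTCF libraries, 54.4, 6.57 and 14.1 CPM in the BMP24 KD libraries and 2.52, 1.03 and 2.26 CPM in the dextran libraries, 8.86-fold with DnTCF and 12.9-fold with BMP24 KD. Model 212994 had 29.5, 27.4 and 24.2 CPM in the DnTCF libraries, 10.1, 21.2 and 23.4 CPM in the BMP24 KD libraries and 4.86, 1.03 and 0.645 CPM in the dextran libraries, 12.4-fold with DnTCF and 8.39-fold with BMP24 KD. In each of these the highest dextran library was less than 0.5 times the lowest perturbed one, while model 158342 owed much of its BMP24 KD mean to replicate 1. Model 93004 had 9.68, 11.9 and 6.22 CPM with DnTCF and 10.1, 17.1 and 12.0 CPM with BMP24 KD, against 2.34, 0.513 and 0.645 CPM with dextran, 7.94-fold with DnTCF and 11.2-fold with BMP24 KD. Model 244340 had 98.1, 101 and 76.8 CPM with DnTCF and 247, 71.4 and 102 CPM with BMP24 KD, against 31.0, 4.11 and 3.87 CPM with dextran, 7.08-fold with DnTCF and 10.8-fold with BMP24 KD. Model 247512 had 343, 182 and 184 CPM with DnTCF and 421, 72.9 and 80.5 CPM with BMP24 KD, against 36.0, 39.5 and 14.2 CPM with dextran, 7.90-fold with DnTCF and 6.40-fold with BMP24 KD. The last of these was the only one of the 6 in which dextran replicate 2 was the highest control, and its level in BMP24 KD replicate 1 was over 5 times that in the other BMP24 KD libraries.

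No model was without counts in all dextran libraries, and 5 had 0 counts in at least 1 of them. Only 2 models had 3 or fewer counts over the whole dextran group. Model 134971 had 71 counts over the DnTCF libraries (57, 1 and 13) and 97 over the BMP24 KD libraries (46, 45 and 6). Against 2 counts over the dextran libraries, the ratios of summed CPM were 30.3 for DnTCF and 41.3 for BMP24 KD. Of its 71 DnTCF counts, replicate 1 supplied 57 and replicate 2 only 1. Model 239481 had 36 counts over the DnTCF libraries and 105 over the BMP24 KD libraries, against 2 over the dextran libraries. Its ratios were 15.4 for DnTCF and 44.7 for BMP24 KD. All these ratios pool 3 libraries per group and rest on 2 dextran counts, so they are imprecise. The selection also required both groups to be high against dextran. For model 239481, BMP24 KD replicate 1 supplied 92.0 of the 105 counts.

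**Figure D2:**
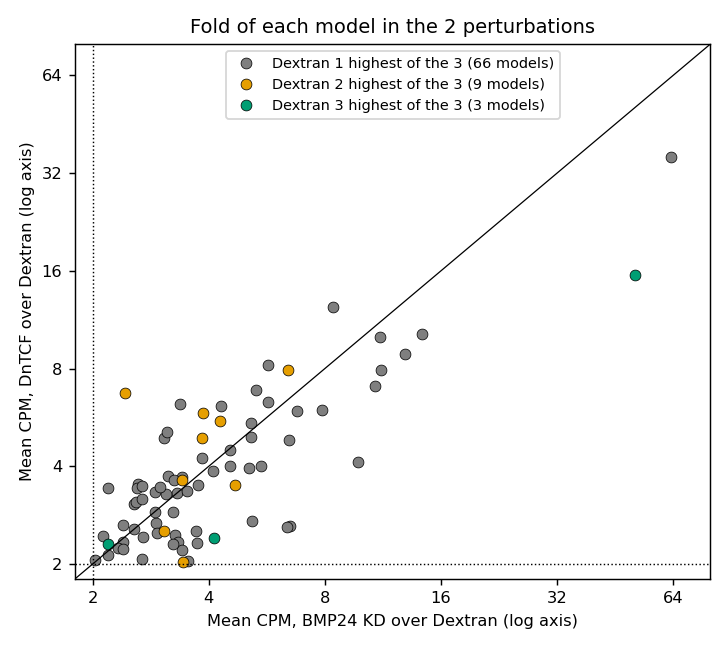
Mean CPM over the dextran mean for each of the 78 models, with BMP24 KD on the horizontal and DnTCF on the vertical axis, both on log scales. Dotted lines mark the 2-fold limit of the selection, the solid line marks equal folds, and colours give the dextran library in which the model was highest. Most points lie along the line of equal folds; both axes share the dextran mean, so points spread along that line by construction.

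The 3 dextran libraries were not alike in these models. Dextran replicate 1 was the highest control for 66 of 78 models (84.6%), replicate 2 for 9 and replicate 3 for 3. Among the 11237 models of at least 5 CPM, replicate 1 was the highest control for 45.7%. The level in replicate 1 over the mean of replicates 2 and 3 had a median of 2.05 over the 76 models with a count in either of those, against 1.10 over the models of at least 5 CPM. In 43 models replicate 1 was at least 2 times that mean, and in 24 it was at least 0.5 times the mean of the perturbed libraries. For these counts no share over all models was computed. The selection used the levels of all 3 controls and so bears on each of these comparisons. Its part in them was not tested.

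Measured against dextran replicate 1 alone, the mean of the perturbed libraries was 1.47 to 31.0 times higher, with a median of 2.37. The median was 4.09 against replicate 2 (74 models with a count) and 6.32 against replicate 3 (75 models). Both groups reached at least 2 times the level of replicate 1 in 41 of the 78 models. Without replicate 1, the median fold over the other 2 controls was 4.59 with DnTCF and 4.66 with BMP24 KD, and without replicate 3 it was 3.12 with DnTCF and 3.06 with BMP24 KD. Leaving out any library loosens the first condition of the selection, so more models can meet it. Applied without dextran replicate 1, the same conditions gave 297 models, the 78 among them. Without BMP24 KD replicate 1 they gave 219 models, of which 68 were among the 78. Without dextran replicate 3, the control with the largest share of reads without a reference, they gave 85 models, and 59 of the 78 were among them; the remaining members of the list had a fold under 2 in at least 1 perturbed group once that control was left out. Without DnTCF replicate 1 they gave 81 models, 66 of the 78 among them.

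**Figure D3:**
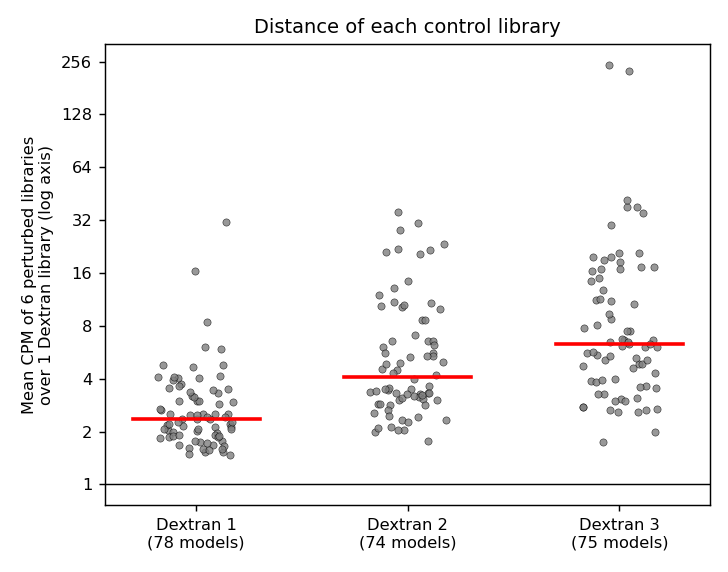
Mean CPM of the 6 perturbed libraries divided by the level in a single dextran library, for each of the 78 models (points, log axis), leaving out models with no count in that library; red lines are medians. The medians are 2.37 for replicate 1, 4.09 for replicate 2 and 6.32 for replicate 3, and every point lies above 1 because of how the models were chosen.

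The order of the controls ran along with the share of reads without a reference. That share was 49.2%, 57.1% and 87.8% in dextran replicates 1, 2 and 3, and the summed level of the models was 2136, 1131 and 796 CPM in the same order. In BMP24 KD replicates 1, 2 and 3 the share was 58.9%, 42.0% and 43.5%, and the summed level 5949, 4520 and 4549.6 CPM. In the DnTCF replicates it was 41.1%, 40.3% and 39.6%, with 6318, 4729 and 4552 CPM. The selection itself placed every model higher in each perturbed library than in each control, so levels at a like share cannot be compared between groups. A set of 5 models that were very high in dextran replicate 3 (at least 1000 CPM, and 50 times the median level elsewhere) held 53.1 to 101 CPM with DnTCF, 147 to 1582 CPM with BMP24 KD and 1644 to 52157 CPM with dextran. With that set left out of the library sums, 76 of the 78 models met the selection.

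Counts on 28S rRNA, relative to gene-model counts, were 4384 to 8302 CPM with DnTCF, 5076 to 10203 CPM with BMP24 KD and 2530 to 4891 CPM with dextran. The part of these library differences in the levels of the 78 models was not tested. With the rRNA and mitochondrial rows added to the library sums, 77 of the 78 met the selection.

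**Figure D4:**
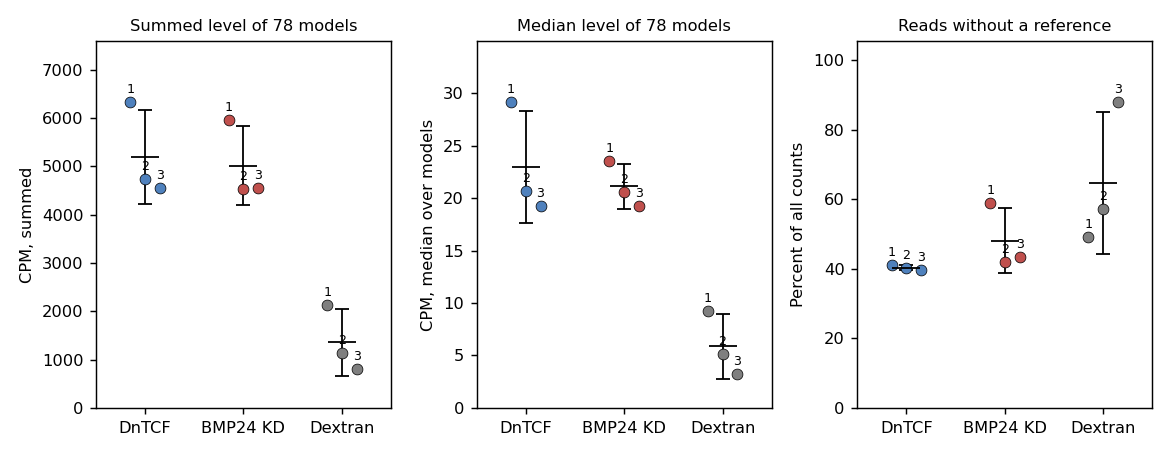
Summed level of the 78 models (left, CPM), their median level (middle, CPM) and the share of counts without a reference (right, percent of all counts) in each library; numbers beside points are replicate numbers, and bars are mean and SD (n = 3). The dextran libraries lie between 796 and 2136 CPM in sum, and their share of reads without a reference runs from 49.2% to 87.8%.

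For comparison, the mirrored conditions, with all 6 perturbed libraries below all 3 dextran libraries, at most 0.5 times the dextran mean and at least 5 CPM in dextran, were met by 278 models. Dextran replicate 1 was the control nearest to the perturbed libraries more often than the others. It was the lowest control for 54.7% of the 278, against 25.8% of the models of at least 5 CPM over the perturbed libraries. Its level over the mean of replicates 2 and 3 had a median of 0.756 in the 278 models. The mirrored conditions used these same levels and so bear on these values. Their part in the values was not tested, nor was the difference between the shares.

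Among the perturbed libraries, replicate 1 of each group stood out most often. BMP24 KD replicate 1 was the highest of the 6 in 27 models (34.6%) and DnTCF replicate 1 in 24 (30.8%). BMP24 KD replicate 1 was also the lowest in 22 (28.2%). In the 11237 models of at least 5 CPM, BMP24 KD replicate 1 was the highest in 20.8% and the lowest in 52.9%. DnTCF replicate 1 was the highest in 21.4% of them. In 13 of the 78 models (16.7%), BMP24 KD replicate 1 was at least 2 times both other BMP24 KD libraries, against 6.99% of the models of at least 5 CPM. In 3 models it was at most 0.5 times both others, against 33.8%. The condition that each perturbed library exceed every control bears on all these shares.

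Model 242121 shows how far BMP24 KD replicate 1 could depart. It had 134, 46.5 and 54.9 CPM in the DnTCF libraries, against 319, 88.0 and 41.9 CPM in the BMP24 KD libraries, and 35.8, 33.9 and 17.1 CPM with dextran. Models 247512 and 239481, described above, were likewise much higher in that library than in the other BMP24 KD libraries. DnTCF replicate 1 was at least 2 times both other DnTCF libraries in 6 models, model 243071 among them, which is 7.69% against 1.82% of the models of at least 5 CPM. The selection bears on this share too, since its condition on the DnTCF mean counts replicate 1.

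The spread over libraries differed by group. The coefficient of variation over the 6 perturbed libraries had a median of 32.3%, against 36.0% for the models of at least 5 CPM. Within DnTCF it was 28.1% against 21.9%, within BMP24 KD 33.8% against 43.3%, and within dextran 57.4% against 24.3%. These spreads come from the same levels that chose the models, which had to be low in every dextran library and higher in every perturbed library. The selection therefore bears on each of these comparisons, and its part in them was not tested. The steadiest model was 160835, with 32.7, 27.4 and 25.8 CPM in the DnTCF libraries, 26.6, 31.3 and 30.5 CPM in the BMP24 KD libraries and 18.9, 11.8 and 6.13 CPM in the dextran libraries, a coefficient of variation of 9.78% over the perturbed libraries. Model 770 followed at 13.1%.

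Some models stood close to the limits of the selection. Model 128449 had 5.34, 2.58 and 5.11 CPM with DnTCF and 15.5, 13.1 and 3.39 CPM with BMP24 KD, against 2.52, 1.54 and 0.967 CPM with dextran, and its lowest perturbed value was 1.02 times its highest dextran value. Model 31519 had 5.34, 4.65 and 9.77 CPM with DnTCF and 3.69, 12.0 and 5.47 CPM with BMP24 KD, against 3.60, 2.05 and 0 CPM with dextran, a ratio of 1.03. On the other side of that limit, model 238309 had 33.5, 29.4 and 28.6 CPM with DnTCF and 5.66, 21.0 and 35.4 CPM with BMP24 KD, against 5.76, 0 and 3.55 CPM with dextran, a ratio of 0.983, and missed because of BMP24 KD replicate 1 alone. Model 239599 had 12.8, 8.26 and 15.8 CPM with DnTCF and 17.5, 13.6 and 16.4 CPM with BMP24 KD, against 8.46, 3.08 and 0.967 CPM with dextran, a ratio of 0.977, and missed because of DnTCF replicate 2.

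On the fold limit, models 129669 and 10538 were the nearest inside, with smaller folds of 2.02 and 2.03, and models 219007 and 248644 the nearest outside, with 1.98 and 1.96. Models 218685 and 205522 were the nearest above the 5 CPM limit, at 5.04 and 5.11 CPM, and models 205559 and 110792 the nearest below, at 4.82 and 4.69 CPM. Over the whole list the lowest perturbed library was a median of 1.33 times the highest dextran library, with a lower quartile of 1.19.

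The selection set no condition on the difference between DnTCF and BMP24 KD, so this comparison was tested. Its conditions on both groups against dextran still bear on which differences could enter the list. The test on the 78 is therefore not independent of the selection. It asks whether models that were higher than the same controls differed between the DnTCF and the BMP24 KD embryos. Counts were fitted with edgeR's quasi-likelihood test over the 13559 models that passed its filter on low counts, all 78 included, with Benjamini-Hochberg adjustment over the 13559. None of the 78 was called by edgeR at an adjusted p under 0.05 (lowest edgeR adjusted p = 0.911), and of all tested models 0% were called. Without adjustment, 1 of the 78 was higher with DnTCF at a p under 0.05 (0.664% of all tested models) and 3 were lower (4.02%). DESeq2's Wald test called 0 of the 78 (0.0297% of all tested models); its unadjusted p was under 0.05 for 1 higher and 3 lower models. With limma-voom no model of the 78 was called either (0% of all), and those counts were 0 and 1.

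Model 243071 was the one with a higher value, at 913, 267 and 308 CPM in the DnTCF libraries, against 181, 196 and 159.7 CPM in the BMP24 KD libraries (log2 difference, DnTCF minus BMP24 KD, 1.25, SE 0.547, unadjusted p = 0.0430, edgeR adjusted p = 0.911). Its BMP24 KD libraries lay close together and below all 3 DnTCF libraries. Without DnTCF replicate 1 the log2 difference was 0.56. Model 128941 had 24.4, 24.3 and 23.1 CPM in the DnTCF libraries, against 18.7, 16.2 and 10.9 CPM in the BMP24 KD libraries (log2 difference, DnTCF minus BMP24 KD, 0.44, SE 0.369, unadjusted p = 0.258, edgeR adjusted p = 0.911). Its groups did not overlap either, with the DnTCF libraries almost equal to each other. Model 204932 had 8.34, 20.1 and 12.2 CPM in the DnTCF libraries, against 8.61, 8.10 and 8.07 CPM in the BMP24 KD libraries, and model 56654 had 16.5, 24.3 and 10.7 CPM in the DnTCF libraries, against 4.67, 17.7 and 11.7 CPM in the BMP24 KD libraries. Both overlapped between the groups (edgeR adjusted p = 0.911 and 0.911).

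In the other direction, model 102619 had 8.84, 5.68 and 6.88 CPM in the DnTCF libraries, against 24.1, 14.0 and 12.5 CPM in the BMP24 KD libraries (log2 difference, DnTCF minus BMP24 KD, -1.48, SE 0.543, unadjusted p = 0.0199, edgeR adjusted p = 0.911). Every DnTCF library was below every BMP24 KD library. Model 1374 had 32.7, 15.5 and 18.7 CPM in the DnTCF libraries, against 51.2, 96.6 and 18.5 CPM in the BMP24 KD libraries (log2 difference, DnTCF minus BMP24 KD, -1.46, SE 0.570, unadjusted p = 0.0265, edgeR adjusted p = 0.911), where BMP24 KD replicate 3 lay within the DnTCF range. Model 128449, already named for its position at the limit, had 5.34, 2.58 and 5.11 CPM in the DnTCF libraries, against 15.5, 13.1 and 3.39 CPM in the BMP24 KD libraries (log2 difference, DnTCF minus BMP24 KD, -1.51, SE 0.640, unadjusted p = 0.0383, edgeR adjusted p = 0.911), with BMP24 KD replicate 3 again in the DnTCF range. Model 239481 had 3.17, 1.55 and 3.11 CPM in the DnTCF libraries, against 22.6, 1.75 and 1.30 CPM in the BMP24 KD libraries (log2 difference, DnTCF minus BMP24 KD, -2.10, SE 1.07, unadjusted p = 0.0758, edgeR adjusted p = 0.911). That difference rested on BMP24 KD replicate 1 and turned to 0.82 without it.

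**Figure D5:**
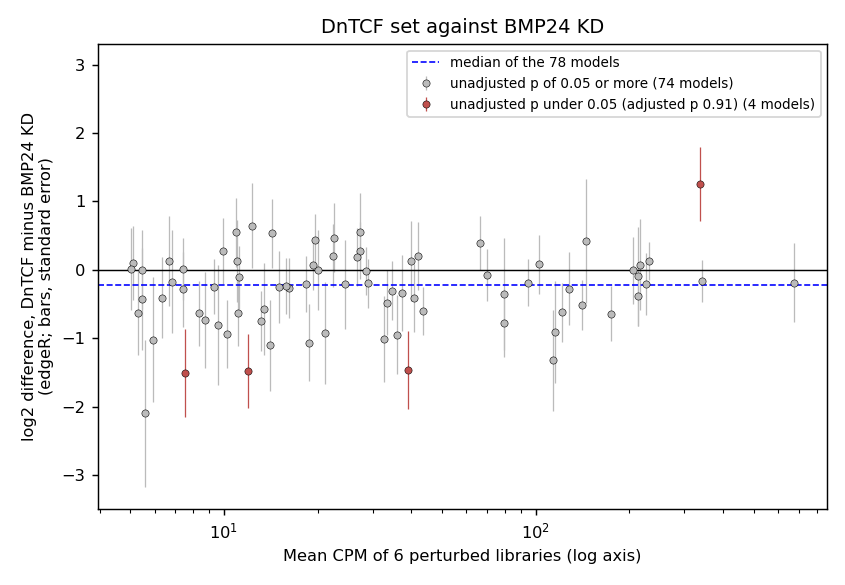
edgeR log2 difference, DnTCF minus BMP24 KD, with its standard error (bars) for each of the 78 models, against the mean CPM of the 6 perturbed libraries (log axis). The 4 models in red had an unadjusted p under 0.05 and an adjusted p of 0.911, and the dashed line is the median of the 78, at -0.23.

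In the CPM used for the selection, 60 of the 78 group means were within 1.5-fold of each other (76.9%, against 78.9% of the models of at least 5 CPM). Within 2-fold were 73 of the 78 (93.6%, against 94.6%). The DnTCF mean was above the BMP24 KD mean in 35 models (44.9%) and below it in 43, where it was above in 59.1% of the models of at least 5 CPM. The median log2 difference in CPM, DnTCF minus BMP24 KD, was -0.05 for the 78 and 0.10 for the models of at least 5 CPM. TMM scaling, which raises the level of BMP24 KD replicate 1 through its factor of 0.732, moved both medians, to -0.23 for the 78 and -0.02 for the models of at least 5 CPM. On that scale the edgeR log2 difference was positive in 25 of the 78 (32.1%) and in 47.6% of all tested models. The selection bears on these shares and medians, because every BMP24 KD library, replicate 1 among them, had to exceed every control. Its part in them was not tested.

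All 3 DnTCF libraries lay above all 3 BMP24 KD libraries in 3 models (243071, 212994 and 128941; 6.15% of the models of at least 5 CPM did so), and all 3 lay below in 4 (79948, 102619, 222789 and 219996; 3.14% of the models of at least 5 CPM). With TMM scaling the counts were 2 above and 7 below, against 4.65% and 4.77%. The selection bears on these counts as well. Single libraries decided the small counts at an unadjusted p under 0.05. Without BMP24 KD replicate 1 there were 4 higher and 0 lower, and without BMP24 KD replicate 3 there were 0 higher and 7 lower. Without BMP24 KD replicate 2 there were 0 higher and 5 lower, without DnTCF replicate 1 there were 0 and 2, and without dextran replicate 1 there were 0 and 3. Leaving out DnTCF replicate 2 or DnTCF replicate 3 gave 1 higher and 0 lower each.

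The model names carry a feature that the selection did not use, the gene prediction set and the scaffold of the Nemve1 assembly. Of the 78, 38 had names that begin with estExt (48.7%), a prefix shared by 46.5% of the models of at least 5 CPM. The sets named fgenesh1_pg held 13 (16.7% against 16.1%), e_gw 16 (20.5% against 25.0%) and gw 11 (14.1% against 8.44%). Read from the names, the 78 models lay on 68 scaffolds. Only 7 scaffolds held more than 1 of them. The most on any was 5, on scaffold 4, which held 171 of the 11237 models of at least 5 CPM, these included. The 5 were models 238276, 238260, 158591, 81127 and 81183. Models 238260 and 238276 came from the same prediction set, numbered 40 apart, and models 81127 and 81183 both had e_gw names. Model 238260 had 21.5, 20.7 and 19.8 CPM with DnTCF and 14.0, 22.8 and 16.9 CPM with BMP24 KD, against 8.46, 3.08 and 6.45 CPM with dextran, and model 238276 had 42.0, 44.4 and 14.0 CPM with DnTCF and 13.8, 21.2 and 28.1 CPM with BMP24 KD, against 10.8, 8.21 and 1.61 CPM with dextran, with no overlap with dextran in either, as the selection required.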

How the data were processed

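Poly-A RNA-seq of 9 whole-embryo samples was used, 3 per group, mapped to groups by their titles; the series' design text calls them biological replicates. The deposited values are raw read counts per reference sequence, made by the authors with FastQC and Bowtie2 2.2.0 per the submitters' processing notes; how reads were counted, with or without strand, and where multiply matching reads went is not given in the sources used here; near-identical models may therefore share reads. Sequences absent from a library's table were entered as 0. The asterisk row (reads without a reference) and the rRNA and mitochondrial rows stayed out of library sums.

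CPM was computed on the sum over gene models. The models and the rules for naming them were chosen with earlier results of these data known. Named were the 6 models with the highest mean, the 6 with the largest smaller fold, the 4 with the lowest p on either side of the difference between DnTCF and BMP24 KD, the 2 steadiest and the 2 on each side of each limit; others named were chosen after their values were seen. DnTCF was tested against BMP24 KD with edgeR 4.0.16 (R 4.3.3; filterByExpr, TMM, glmQLFit and glmQLFTest, all 9 libraries, 6 residual degrees of freedom). Alternatives were other scalings, DESeq2 1.42.0, limma 3.58.1, no filter, 6 libraries only, a replicate block, other limits of the selection and leaving out libraries. Samples share only a number: same-numbered libraries did not deviate together throughout.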

Additional observations from a re-analysis of the deposited data

Results flagged for a closer look

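Counts on ribosomal RNA, which the comparisons of gene models do not use, were above the level of every control library in every BMP24 KD library. Relative to gene-model counts, 28S rRNA averaged 8211 CPM with BMP24 KD and 3549 CPM with dextran, and 18S rRNA averaged 6049 CPM with BMP24 KD and 1995 CPM with dextran. The DnTCF libraries, in which the 78 models summed to 4552 to 6318 CPM, overlapped the dextran libraries for both rRNAs (4384 to 8302 CPM against 2530 to 4891 CPM for 28S). The part of rRNA in the levels of the 78 models was not tested. Groups of 3 libraries are too small to test single outlying samples.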

How the results depend on the processing

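The number of models that met the selection was 96 to 104 with TMM, DESeq2 size factors or upper-quartile scaling, and 75 of the 78 met it under all 5 other scalings. A fold of 1.5, 3 or 4 in place of 2 gave 122, 40 and 23 models, and no minimum mean gave 126. Leaving out one library at a time gave 80 to 297, and leaving out BMP24 KD replicate 1 and dextran replicate 3 together gave 170, of which 50 were among the 78. Leaving out a library loosens the condition that every perturbed library exceed every control, so more models can meet that condition. The highest counts came without dextran replicate 1 (297) and without BMP24 KD replicate 1 (219), and the fewest of the 78 were kept without dextran replicate 3 (59).

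Between DnTCF and BMP24 KD, the median log2 difference over the 78 was -0.23 with TMM and -0.25 with DESeq2 size factors, against -0.05, and ran from -0.145 to 0.06 when single libraries were left out; the cause was not tested. edgeR called 0 models in every setting and DESeq2 called 4, none of them among the 78. With an unadjusted p under 0.05, limma-voom gave 0 higher and 1 lower of the 78, library totals 1 lower, and the fit without BMP24 KD replicate 1 and dextran replicate 3 gave 5 higher and 0 lower. Leaving out single libraries gave 0 to 4 higher and 0 to 7 lower. With the replicate number as a block, 1 was higher, 2 were lower and 0 were called; the correlation of deviations between same-numbered libraries ran from -0.22 to 0.33, so the numbers were not taken as pairs. Not every library correlated best with its own number. The log2 difference of model 239481 was 0.82 without BMP24 KD replicate 1, with or without dextran replicate 3, and -2.64 at the other extreme, without BMP24 KD replicate 3; that model had 3 to 92 counts in the perturbed libraries. The other 7 models named for their difference kept its sign in every setting.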
